A study of Gallus gallus with 24 samples.

Results

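Plasma cells are the antibody-secreting end stage of the B cell line, and their genes were followed here in the chicken jejunum. Genes were chosen by name: JCHAIN, PIGR, PRDM1, IRF4, XBP1, POU2AF1, DERL3, TNFSF13B and IKZF3. All 9 are among the 15618 genes of the table, and all 9 were among the 13279 that passed the filter on low values. The data are RNA sequencing of jejunum from 24 chickens in 4 groups of 6 separate birds, as TPM values (transcripts scaled to a fixed library total), which are scaled for transcript length. HAS and LAS are chicken lines bred for strong and weak antibody production against SRBC, the red blood cells of sheep. HASI and LASI are birds of each line injected with SRBC, HASN and LASN are uninjected birds, and the labels give day 5 after injection for every sample, uninjected ones included. Age and route of injection are not given in the sources used here. The design allows the lines to be compared with and without the antigen, and each line to be compared with itself.

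In the gut wall, plasma cells release polymeric antibody whose subunits are held together by the joining chain, JCHAIN. The polymeric immunoglobulin receptor, PIGR, sits on the epithelium and carries that antibody into the lumen. Work mainly in mice has shown that PRDM1 shuts down the B cell programme, IRF4 drives the turn to a plasma cell, XBP1 enlarges the secretory apparatus, and POU2AF1 is a coactivator of antibody gene transcription. IKZF3 is a zinc finger factor of lymphocytes that long-lived plasma cells need in mice. DERL3 helps to move misfolded proteins out of the endoplasmic reticulum (ER), and TNFSF13B, also called BAFF, is a survival factor for B cells. Antibody chain genes themselves are not analysed here, because none of 11 symbols searched was matched.

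Each sample is whole tissue, so fewer cells of a type and less RNA per cell cannot be told apart. Enterocyte genes bore out an intestinal source. Villin (VIL1) stood at 818 to 1398 TPM, the fatty acid binding protein FABP2 at 3808 to 11107 TPM and the aminopeptidase ANPEP at 1372 to 3146 TPM. SI and CDX2, also chosen as markers, had no match. The jejunum was not told apart from other segments by these genes. Depth cannot be given, since the table holds no read counts. The uninjected libraries stood apart from each other. HASN replicates 1 to 3 had 13722 to 13916 genes above 0 TPM and the other 3 had 14468 to 14653; in LASN 3 libraries had 13979 to 14149 and 3 had 14538 to 14801. HASN replicates 1 to 3 also had a span slope, the slope of log2(TPM + 1) on log2 gene span within a library, of -0.28 to -0.22, against -0.02 to 0.01 in the other 3, so they held relatively less of the long genes. Group means of the span slope differed as well, at -0.05 in LASN against -0.18 in LASI and -0.12 in HASN against -0.16 in HASI. It ran from -0.13 to 0.02 in LASN and from -0.24 to -0.06 in LASI. Injected libraries had a larger share of mitochondrially encoded RNA, with means of 27.8% in HASI and 22.1% in LASI against 17.5% in HASN and 15.0% in LASN. The mean log2(TPM + 1) of genes on chromosome W, the female sex chromosome of birds, split every group. It ran from 0.14 to 2.96 in HASN, 0.21 to 2.54 in HASI, 0.28 to 3.14 in LASN and 0.17 to 2.76 in LASI. Each library lay either at 0.41 or below or at 2.16 or above. The lower ones were replicates 1, 2 and 4 of HASN and 4 and 6 of HASI. In LAS they were replicates 1, 3 and 6 of LASN and 1, 4 and 5 of LASI. The main fit did not include this mean. These differences lie within and between the groups compared. Several of the member results that rest on the uninjected birds, and the list counts with injection, are therefore also given without either set.

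The levels of the 9 genes spanned a wide range. PIGR was the highest, with a mean of 1860 TPM over 24 libraries and rank 42 among all genes. JCHAIN followed with 1189 TPM and rank 82. XBP1 averaged 186 TPM and DERL3 39.7 TPM. IRF4 averaged 13.6 TPM, IKZF3 11.1 TPM, TNFSF13B 5.53 TPM, PRDM1 5.43 TPM and POU2AF1 3.85 TPM. DERL3 and XBP1 varied least between birds of a group, with a within-group SD of 0.20 and 0.24 on the log2 scale, and PRDM1 varied most, with 0.77. PIGR and JCHAIN overlapped over libraries, from 908 to 3473 TPM and from 432 to 2499 TPM, whereas JCHAIN, XBP1 and DERL3 did not overlap with each other. IRF4, IKZF3, TNFSF13B, PRDM1 and POU2AF1 overlapped with each other, and all lay below the lowest DERL3 value of 30.9 TPM.

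The table places the genes on galGal6 as follows. JCHAIN (ENSGALG00000011551) lies at chr4:50012279-50018146 on the minus strand. PIGR (ENSGALG00000000919) lies at chr26:2580165-2590723, minus strand. PRDM1 (ENSGALG00000015388) spans chr3:68350477-68445504, minus strand, and IKZF3 (ENSGALG00000013481) chr27:7069465-7091251, minus strand. IRF4 lies at chr2:66457756-66470687 on the plus strand, and POU2AF1 at chr24:4343410-4355489 on the minus strand. XBP1 at chr15:8001344-8004755 and DERL3 at chr15:8295036-8299924 share a chromosome and the minus strand, and TNFSF13B lies at chr1:141624410-141643190, minus strand. No sequences were used.

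**Figure D1:**
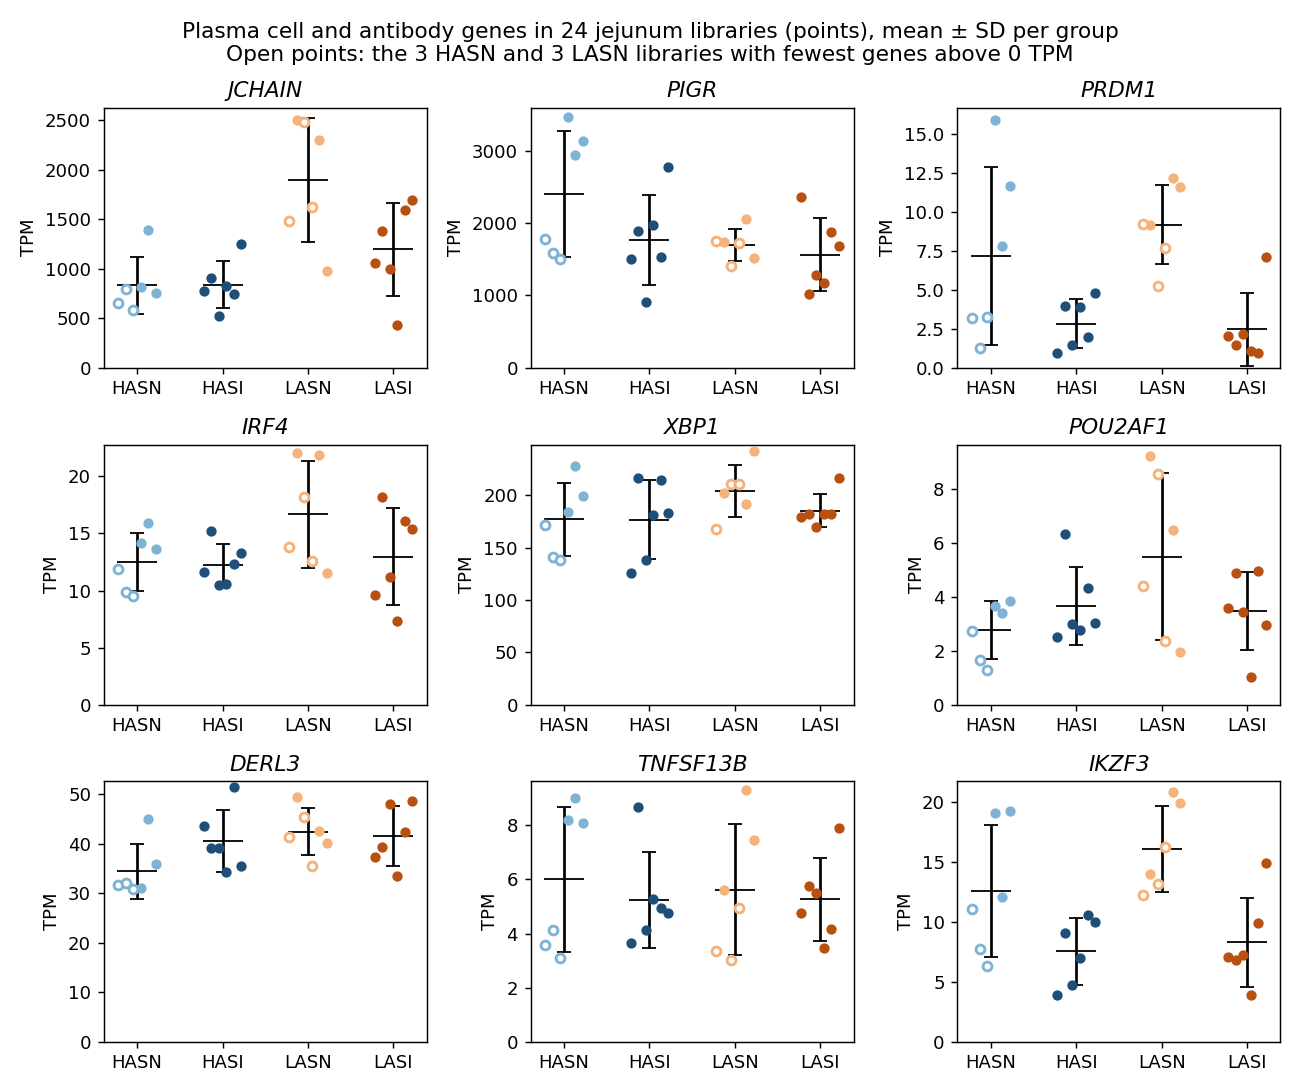
TPM of the 9 genes (y axes, linear from 0) in the 6 libraries of each group (points), with group mean and SD (bars). JCHAIN was lower in 5 of 6 HASN libraries than in every LASN library. In all genes but JCHAIN and DERL3, the HASN libraries with fewest genes above 0 TPM (open points) lie below the other HASN libraries.

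JCHAIN, the joining chain, had lower levels in most uninjected HAS birds than in uninjected LAS birds, by a margin that just missed the test. HASN libraries had 580 TPM at the lowest, a median of 775 and 1391 at the highest. LASN libraries had 972 at the lowest, a median of 1963 and 2499 at the highest. In HASN 5 libraries lay below all LASN libraries, and replicate 5 reached into their range. Group means were 832 ± 288 TPM in HASN and 1894 ± 627 TPM in LASN (SD, n = 6 each). The log2 fold change was -1.17 (SE 0.30; 95% interval -1.78 to -0.55), with a limma adjusted p of 0.0535 over all tested genes, just outside the 0.05 threshold. It passed in only 2 of 12 fits that left out 1 library, with an adjusted p of 0.143 at the highest. These were the fits without HASN replicate 5 (adjusted p = 0.0234) and without the sixth LASN replicate (adjusted p = 0.0218). They are the highest HASN and the lowest LASN library, so leaving out either had to widen the difference. Without the uninjected libraries with fewest genes above 0 the log2 fold change was -0.90 (adjusted p = 0.974), and without those with most -1.43 (adjusted p = 0.0229), in a fit that called 26.2% of all tested genes. None of the 9 genes was called in this comparison, in which 1.17% of all tested genes were, and none had groups that did not overlap, as 1.21% of all tested genes did.

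After injection the line difference in JCHAIN was smaller and its interval included 0. HASI libraries ranged from 525 to 1251 TPM around a median of 800. LASI libraries ranged from 432 to 1695 TPM around a median of 1220. Both groups overlapped widely, although 5 of 6 HASI libraries were below the LASI median. HASI minus LASI was -0.43 on the log2 scale (95% interval -1.05 to 0.18; adjusted p = 0.926). Among all tested genes 0.542% were called between the injected groups and 1.36% did not overlap, against 0 of the 9 for both.

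Averaged over injected and uninjected birds, JCHAIN was the 1 gene of the 9 called between the lines, and it was lower in HAS, by a log2 fold change of -0.80 (SE 0.21; limma adjusted p = 0.0396). In this comparison 2.60% of all tested genes were called, and the median over all tested genes was -0.14. The call lay near the threshold: it was kept in only 5 of 24 fits that left out 1 library (HASN 5, HASI 6, LASN 1, LASN 6 or LASI 4), with adjusted p from 0.00388 to 0.0789. It was lost when TPM was rescaled by median ratios (adjusted p = 0.125), and its log2 fold change was then -0.64. Without the 6 uninjected libraries with fewest genes above 0 the value was -0.67 (adjusted p = 0.366), and without the 6 with most it was -0.93 (adjusted p = 0.0252), where 10.3% of all tested genes were called.

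Within lines, injection left JCHAIN at the same mean in HAS birds and at a lower one in LAS birds. In HAS the means were 837 ± 239 TPM injected and 832 ± 288 TPM uninjected (SD, n = 6 each), a log2 fold change of 0.02 (95% interval -0.59 to 0.63). In LAS the mean was 1194 ± 466 TPM in injected birds, a log2 fold change of -0.71 against LASN (95% interval -1.33 to -0.10; adjusted p = 0.0668), which was -0.28 after median-ratio rescaling and passed without LASI replicate 6 (adjusted p = 0.0303). All 6 LASI libraries were below the LASN median, and 1 was below every LASN library. The difference between both responses was 0.74 (95% interval -0.13 to 1.6; adjusted p = 0.750), so the lines are not shown to differ in response. HASN vs LASN and LASI vs LASN share the LASN birds, so their values are not independent of each other.

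PIGR did not follow JCHAIN between the lines. In HASN it ranged from 1505 to 3473 TPM around a median of 2365, and in LASN from 1411 to 2058 TPM around a median of 1733. HASN minus LASN was 0.42 on the log2 scale (95% interval -0.10 to 0.95; adjusted p = 0.458). Over the alternative fits this value ran from -0.005 to 0.86, with a limma adjusted p of 0.0672 at the lowest. In HASN 3 libraries lay above all of LASN, and these were the 3 with most genes above 0. Injected birds had 908 to 2785 TPM in HASI and 1018 to 2364 TPM in LASI. PIGR was called in none of the 7 contrasts.

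The balance of joining chain to receptor separated the uninjected lines completely. Within a library, JCHAIN TPM divided by PIGR TPM was 0.235 to 0.504 in HASN, with a median of 0.377. In LASN it was 0.640 to 1.76, with a median of 1.03, and 3 of the 6 libraries held more JCHAIN than PIGR. The mean log2 ratio differed by -1.59, with an exact two-sided permutation p of 0.00216, the smallest that 6 against 6 birds allow, and 0.0173 when adjusted over the 8 ratio comparisons. A ratio within a library does not depend on how the library is scaled. It can still depend on other library measures: within groups r with the span slope was 0.69 for PIGR and 0.29 for JCHAIN. With the mitochondrially encoded share r was -0.57 for PIGR and -0.19 for JCHAIN. The part of either measure in the ratio was not tested, and other pairs of genes that separate these groups were not counted. Among libraries with fewest genes above 0 the ratio was 0.368 to 0.504 in HASN and 0.844 to 1.76 in LASN, and among those with most 0.235 to 0.472 and 0.640 to 1.44. Since the full groups do not overlap, these subsets could not. A ratio shows unequal change and not which gene moved.

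Injected birds showed the same order of medians without passing the test. The ratio of JCHAIN to PIGR was 0.417 to 0.579 in HASI, a narrow spread, and 0.369 to 1.36 in LASI. The log2 difference between them was -0.59 (exact permutation p = 0.0736; adjusted p = 0.165). Injected against uninjected HAS birds differed by 0.46 (exact p = 0.0390; adjusted p = 0.156) and LAS birds by -0.54 (exact p = 0.175; adjusted p = 0.281). No ratio of JCHAIN to the coactivator POU2AF1 differed past the test: in uninjected birds its median was 323 in HASN and 345 in LASN, a log2 difference of -0.30 (exact p = 0.348; adjusted p = 0.398).

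**Figure D2:**
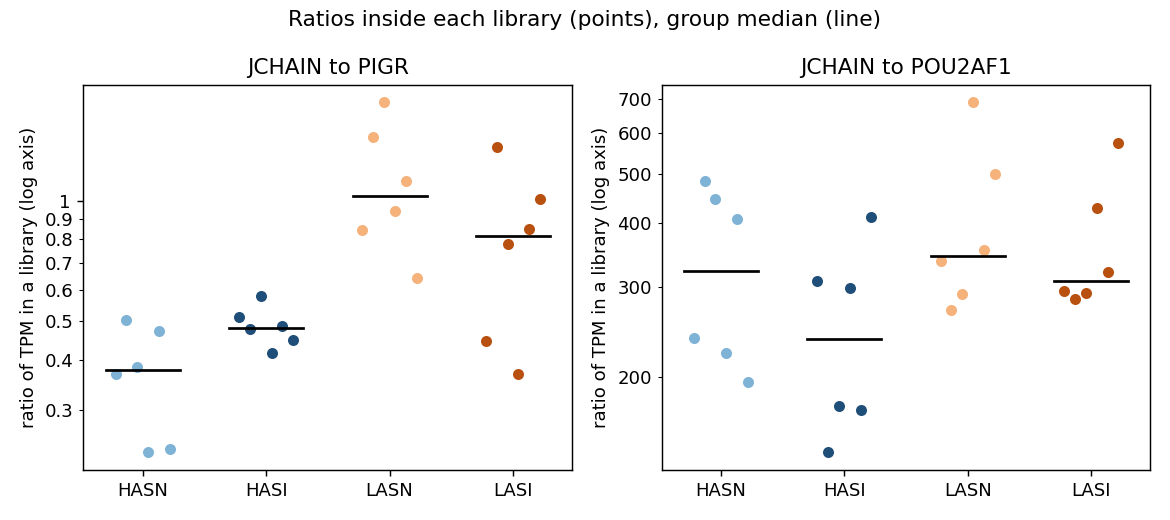
Ratio of JCHAIN to PIGR (left) and of JCHAIN to POU2AF1 (right) within each library (points, log y axis), with group medians (lines). The JCHAIN to PIGR ratio of the 6 HASN libraries stays at or below 0.504 and that of the 6 LASN libraries at or above 0.640, while the JCHAIN to POU2AF1 ratios overlap in every comparison.

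Among the plasma cell regulators, PRDM1 had the largest change on injection. In LASN it ranged from 5.27 to 12.2 TPM around a median of 9.20. In LASI 5 libraries lay at 0.926 to 2.16 TPM, below every LASN library, and replicate 6 stood at 7.13 TPM. The log2 fold change was -1.70 (SE 0.42; limma adjusted p = 0.0133). In this comparison 31.1% of all tested genes were called, mostly lower, and the median over all tested genes was -0.33, while 2 of the 9 genes were called and 0 of 9 did not overlap against 4.84% of all tested genes. The call held against either set of 3 LASN libraries, at -1.97 (adjusted p = 0.00128) and -1.44 (adjusted p = 0.0497), and was lost with the mitochondrially encoded share as a covariate, at -0.86 (adjusted p = 0.298). With the span slope as a covariate it was -0.68 (adjusted p = 0.0413).

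In HAS birds the same gene gave an answer that depended on which uninjected birds were used. PRDM1 in HASN was 1.29, 3.19 and 3.25 TPM in the libraries with fewest genes above 0 and 7.84, 11.7 and 15.9 TPM in the other 3. HASI libraries ranged from 0.950 to 4.80 TPM, which overlaps the first set and lies below the second. With all birds the log2 fold change was -0.88 (95% interval -1.75 to -0.01; adjusted p = 0.299). Against the second set it was -1.80 (adjusted p = 0.00184), where 57.4% of all tested genes were called, and against the first it turned to 0.04 (adjusted p = 0.965). None of the 9 genes was called between HASI and HASN, where 2.0% of all tested genes were called and 1.93% did not overlap. The interaction of line and injection for PRDM1 was 0.83 (95% interval -0.41 to 2.06; adjusted p = 0.750). No gene of all those tested was called for the interaction (0% by limma; 606 had an unadjusted p under 0.05).

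Averaged over both lines PRDM1 was lower in injected birds by -1.29 on the log2 scale (limma adjusted p = 0.00493), where 41.1% of all tested genes were called. With the 6 uninjected libraries with fewest genes above 0 left out it was -1.89 (adjusted p = 3.29e-05), and with the other 6 left out -0.70 (adjusted p = 0.244). With the mitochondrially encoded share as a covariate it was -0.27 (adjusted p = 0.893). PRDM1 moved with the span slope in every group, by description, with r of 0.96 (HASN), 0.89 (HASI), 0.84 (LASN) and 0.97 (LASI) over 6 libraries each. It is also the longest of the 9 genes, with a span of 95028 bases on chromosome 3 against 3412 for XBP1. The 5 genes most like PRDM1, named after their values were seen, were INTS1, AFF1, TJP1, NOM1 and FOXJ2, with r of 0.97 to 0.98, and their own r with the span slope was 0.92 to 0.97. They were picked for a high r with PRDM1, which itself moved with the span slope, so their r with it was bound to be high. The part of these library measures in the change was not tested.

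IKZF3 was the other regulator that fell on injection. LASN libraries ranged from 12.2 to 20.8 TPM around a median of 15.1, and LASI libraries from 3.92 to 14.8 TPM around a median of 7.11. All LASI libraries except replicate 6 lay below all of LASN. LASI minus LASN was -0.94 on the log2 scale (SE 0.29; limma adjusted p = 0.0227), or -0.55 after median-ratio rescaling (adjusted p = 0.0432), and averaged over both lines it was -0.79 (adjusted p = 0.00812). In LAS the call was lost without LASN replicate 5 or 6 or LASI replicate 2 or 4 (adjusted p from 0.0526 to 0.0632), with the span slope as a covariate (log2 fold change -0.41; adjusted p = 0.328) and with the mitochondrially encoded share (-0.35; adjusted p = 0.488). Its value was -1.12 (adjusted p = 0.00963) without the uninjected libraries with fewest genes above 0 and -0.76 (adjusted p = 0.122) without those with most. IKZF3 is also active in T cells, and its 5 most similar genes, named after their values were seen, included LCK, a T cell receptor kinase, and PTPRC, the pan-leukocyte antigen CD45. With injection averaged over lines 5 of 13 T cell genes were lower and 1 was higher, against 41.1% of all tested genes called; LCK fell by 1.04 on the log2 scale (limma adjusted p = 0.00262), or -0.69 (adjusted p = 0.163) without the uninjected libraries with most genes above 0, while CD28 rose by 0.81 (adjusted p = 0.00395). HASI libraries had 3.86 to 10.6 TPM of IKZF3 and HASN libraries 6.31 to 19.2 TPM, a log2 fold change of -0.64 (adjusted p = 0.274).

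IRF4 was steadier. Its level was 9.56 to 15.9 TPM in HASN and 10.5 to 15.2 TPM in HASI. In the other line it was 11.5 to 22.1 TPM in LASN and 7.35 to 18.2 TPM in LASI. The 3 highest LASN libraries stood above all HAS libraries, and the lowest value of all was LASI replicate 4. In HASN the 3 libraries with fewest genes above 0 had 9.56 to 11.9 TPM and the other 3 had 13.7 to 15.9 TPM. HASN vs LASN gave a log2 fold change of -0.37 (95% interval -0.79 to 0.05; adjusted p = 0.455), and injection gave -0.02 in HAS and -0.36 in LAS, neither called.

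POU2AF1 had 1.30 to 3.84 TPM in HASN and 2.51 to 6.32 TPM in HASI, and 1.94 to 9.24 TPM in LASN and 1.01 to 4.97 TPM in LASI. All 6 HASN libraries were below the LASN median of 5.45 TPM. Of these the 3 with fewest genes above 0 had 1.30 to 2.75 TPM and the other 3 had 3.41 to 3.84 TPM. HASN vs LASN gave a log2 fold change of -0.68 (95% interval -1.34 to -0.03), with an unadjusted p of 0.0423 and an adjusted p of 0.412.

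XBP1 stayed within 126 to 243 TPM in all 24 libraries. Medians were 178 TPM (HASN), 182 TPM (HASI), 206 TPM (LASN) and 182 TPM (LASI). Its log2 fold changes lay between -0.22 and -0.01 in the 4 group comparisons, and none was called. The largest, HASN vs LASN, had a 95% interval of -0.51 to 0.07, and over the alternative fits it ran from -0.39 to 0.02. Averaged over lines its injection value was -0.07 as deposited and 0.28 after median-ratio rescaling (adjusted p = 0.0159), so no direction can be given for it. That rescaling moved the median over all tested genes from -0.29 to 0.01.

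DERL3 was the lowest in HASN, where 5 libraries lay at 30.9 to 35.9 TPM and replicate 5 at 45 TPM. LASN libraries had 35.6 to 49.5 TPM, and 4 HASN libraries were below all of them. HASN minus LASN was -0.30 on the log2 scale (95% interval -0.56 to -0.04; adjusted p = 0.345). HASI had 34.4 to 51.4 TPM and LASI 33.4 to 48.6 TPM. All 6 HASI libraries exceeded the HASN median of 31.8 TPM, with a log2 fold change of 0.23 (adjusted p = 0.344). Averaged over lines its injection value was 0.10 (limma adjusted p = 0.378). Over 36 alternative fits it ran from 0.01 to 0.45 and was called in 2 of them.

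TNFSF13B had medians of 6.11 TPM (HASN), 4.85 TPM (HASI), 5.29 TPM (LASN) and 5.15 TPM (LASI), and no HASN library lay near the HASN median. Its spread within HASN was 3.10 to 9.0 TPM, with a gap between the 3 libraries with fewest genes above 0, at 3.10 to 4.14 TPM, and the other 3, at 8.07 to 9.0 TPM. No contrast was called, and HASN vs LASN gave 0.07 on the log2 scale (95% interval -0.48 to 0.63). Against the upper HASN set alone, HASI stood at -0.64 on the log2 scale (adjusted p = 0.0288, with 57.4% of all tested genes called), and against the lower set higher by 0.40 (adjusted p = 0.451).

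**Figure D3:**
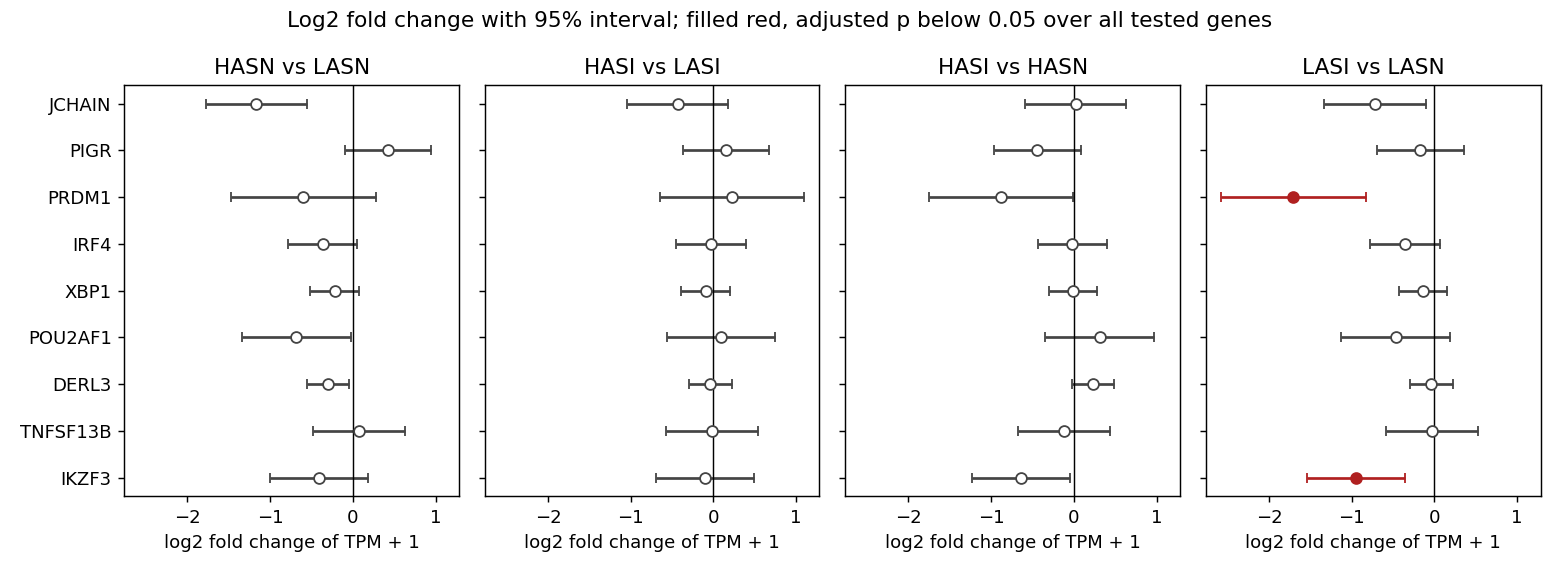
Log2 fold change of TPM + 1 (x axis) with 95% interval for the 9 genes in 4 group comparisons; filled red points have an adjusted p below 0.05. The red points are PRDM1 at -1.70 and IKZF3 at -0.94, both in LASI vs LASN, and JCHAIN in HASN vs LASN lies at -1.17 without passing.

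Within groups several of the genes varied together from bird to bird. After the group means were subtracted, all 36 pairs of the 9 genes had a positive Pearson r over 24 libraries, and 18 passed at an adjusted p below 0.05 (within-group permutation, Benjamini-Hochberg over 36 pairs). The common sign depended on scaling: after median-ratio rescaling 11 of the 36 were negative and 6 passed, of which PRDM1 with DERL3 (-0.74; permutation adjusted p = 0.0018) and PRDM1 with XBP1 (-0.62; adjusted p = 0.0142) were negative. Of the 18 pairs that passed as deposited, 3 passed as well once the span slope was regressed out: JCHAIN with IRF4, IRF4 with POU2AF1, and JCHAIN with POU2AF1.

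JCHAIN with IRF4 had r of 0.84 (rho 0.79; permutation p = 1e-05, the smallest that 100000 permutations can give; adjusted p = 0.00018), and 0.82 without the span slope. In single groups it was 0.74 (HASN), 0.61 (HASI), 0.90 (LASN) and 0.89 (LASI). Leaving out the 2 libraries farthest from the JCHAIN median gave 0.82. With the means of each set of 3 uninjected libraries removed it was 0.85 (adjusted p = 0.00288).

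IRF4 with POU2AF1 had r of 0.85 (rho 0.84; permutation p = 1e-05; adjusted p = 0.00018), and 0.84 without the span slope. Single groups gave 0.93, 0.79, 0.92 and 0.81 in the order HASN, HASI, LASN and LASI. Without the 2 libraries farthest from the IRF4 median r was 0.77, and with the set means removed 0.83 (adjusted p = 0.00288).

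JCHAIN with POU2AF1 had r of 0.70 (rho 0.63; permutation p = 0.00114; adjusted p = 0.00571), and 0.68 without the span slope. It was 0.91 in LASN and 0.86 in LASI but 0.50 in HASN and 0.13 in HASI; the difference between groups was not tested. Without the 2 farthest libraries r was 0.65, and with the set means removed it was 0.67 with an adjusted p of 0.0531.

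Other genes passed with these 3 before the span slope was regressed out. DERL3 had r of 0.53 with IRF4 (rho 0.56; permutation adjusted p = 0.0332), 0.51 with POU2AF1 (rho 0.53; adjusted p = 0.0338) and 0.48 with JCHAIN (rho 0.40; adjusted p = 0.0488), or 0.36, 0.33 and 0.42 without the 2 farthest libraries. IRF4 had 0.52 with IKZF3 (rho 0.45; permutation adjusted p = 0.0332) and 0.50 with TNFSF13B (rho 0.53; adjusted p = 0.0382), or 0.47 with either without the 2 farthest libraries. PIGR had 0.49 with JCHAIN (rho 0.55; permutation adjusted p = 0.0378), or 0.56 without them. IRF4 with DERL3 also passed after median-ratio rescaling (0.60; adjusted p = 0.00243). PRDM1 correlated with JCHAIN at r of 0.30 (rho 0.32; permutation p = 0.172; adjusted p = 0.203), and at 0.08 without the span slope; without the 2 farthest libraries it was 0.38. XBP1 correlated with JCHAIN at 0.29 (rho 0.38; permutation p = 0.124; adjusted p = 0.165), and without the 2 farthest libraries at 0.30. XBP1, IKZF3, TNFSF13B, PRDM1 and PIGR moved with library measures. Their r with the span slope was 0.60 for XBP1, 0.73 for IKZF3, 0.83 for TNFSF13B, 0.93 for PRDM1 and 0.69 for PIGR, with rho from 0.57 to 0.89, permutation p adjusted over 18 relations from 0.00018 to 0.00982, and r from 0.56 to 0.92 without the 2 farthest libraries. With the set means removed PIGR (0.47) and XBP1 (0.36) no longer passed. After median-ratio rescaling PRDM1 (0.87) and TNFSF13B (0.56) kept their relation, PIGR (0.14) and IKZF3 (0.37) did not pass, XBP1 turned to -0.65 (permutation adjusted p = 0.00864), and DERL3 reached -0.76 (adjusted p = 9e-05). JCHAIN had r of 0.29 with the span slope (rho 0.36; permutation adjusted p = 0.254), IRF4 0.34 (rho 0.27; adjusted p = 0.162) and POU2AF1 0.21 (rho 0.18; adjusted p = 0.399). By description, in the same gene order, r within HASN alone was 0.52, 0.90 and 0.90, and within LASN -0.40, -0.08 and -0.44. It was 0.61, 0.29 and 0.09 within HASI and 0.46, 0.18 and 0.08 within LASI. With the mitochondrially encoded share, XBP1 had r of -0.81 (rho -0.81), IKZF3 -0.79 (rho -0.83) and PRDM1 -0.75 (rho -0.76), each with a permutation adjusted p of 0.000288 or less and r of -0.67 or below without the 2 farthest libraries. TNFSF13B had -0.65 (rho -0.64, permutation adjusted p = 0.00134) and PIGR -0.57 (rho -0.56, adjusted p = 0.0253) with that share. Without the 2 farthest libraries they had -0.67 and -0.47. After median-ratio rescaling XBP1 had 0.16 with that share (permutation adjusted p = 0.509), DERL3 0.66 (adjusted p = 0.00871), PRDM1 -0.71 and IKZF3 -0.58. TNFSF13B (-0.40) and PIGR (-0.10) then did not pass.

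**Figure D4:**
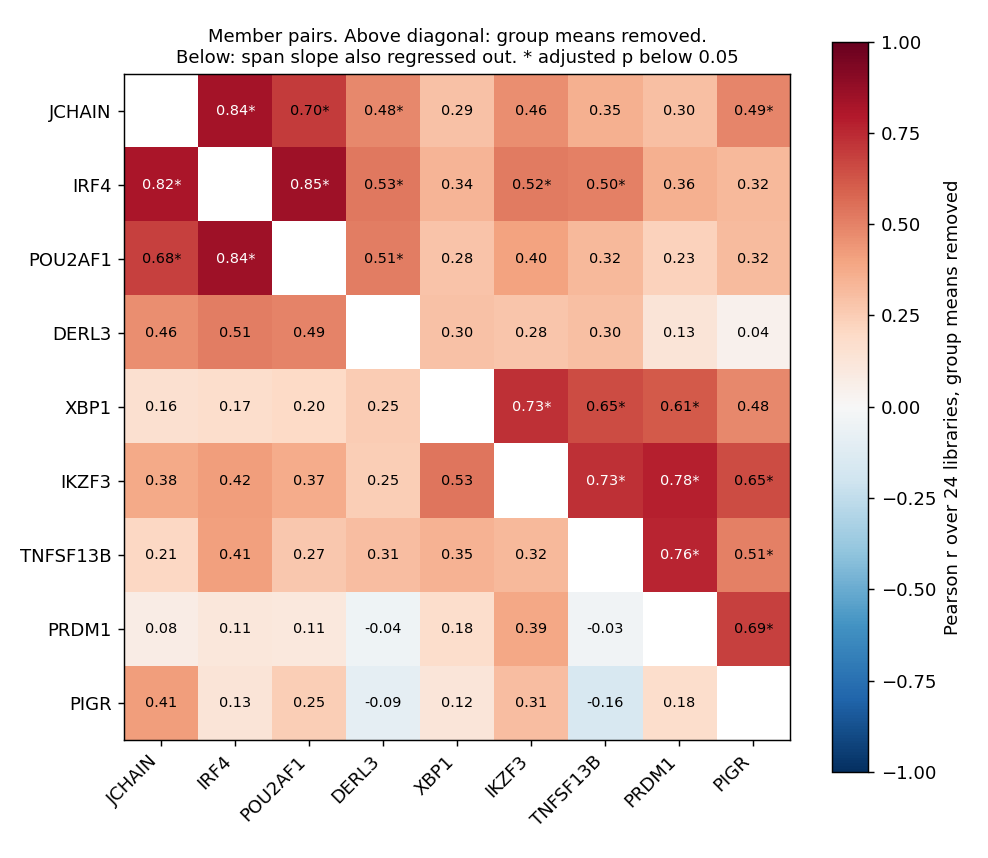
Pearson r between the 9 genes over 24 libraries after group means were removed (above the diagonal) and with the span slope also regressed out (below). Of the 18 pairs marked above, 3 are marked below, and these join JCHAIN, IRF4 and POU2AF1.

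**Figure D5:**
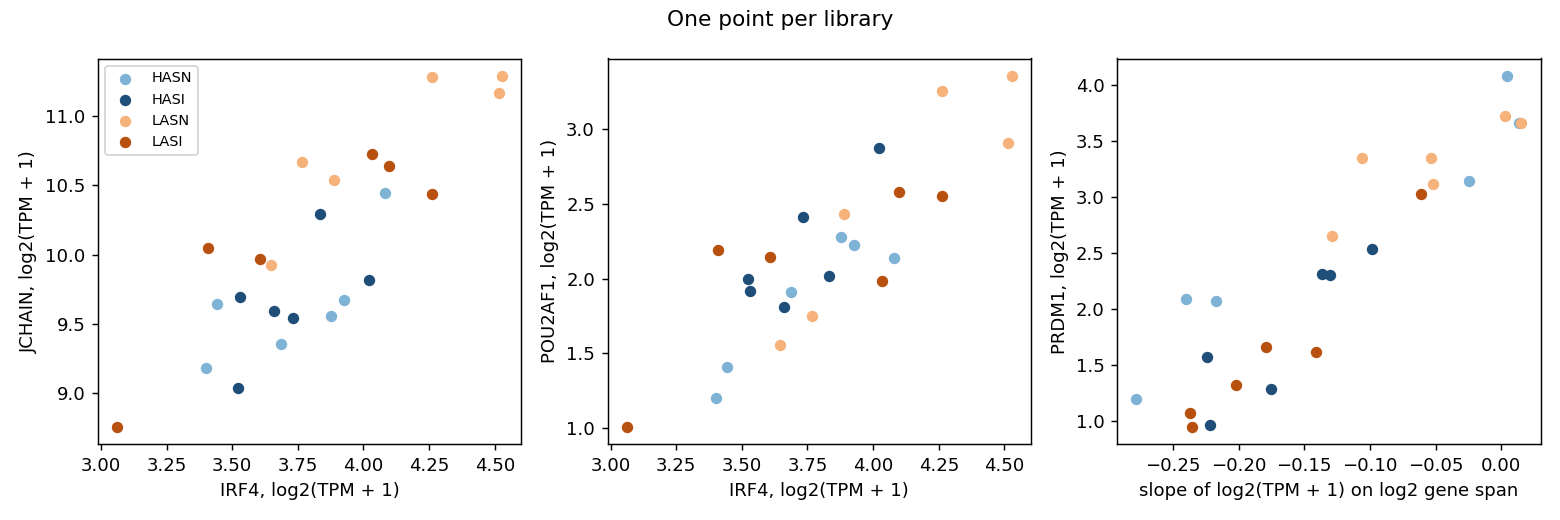
One point per library, coloured by group: JCHAIN against IRF4 (left) and POU2AF1 against IRF4 (middle), in log2(TPM + 1), and PRDM1 in log2(TPM + 1) against the span slope of the library (right). JCHAIN and POU2AF1 rise with IRF4 with r of 0.84 and 0.85 within groups, and PRDM1 rises with the span slope with r of 0.93.

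A search of 10184 genes gave the patterns most like each gene, by r within groups over 24 libraries. For JCHAIN these were IRF4 at 0.84, AHCY at 0.80, DIO1 at 0.78, TXNDC5, a disulfide isomerase of the ER, at 0.76, and FAM118B at 0.76. For POU2AF1 IRF4 came first at 0.85, then TXNDC5 and FAM96A, both at 0.76. For XBP1 ADCK1 stood at 0.94, PDIA6, another ER disulfide isomerase, and BZW2 both at 0.93, and the chaperonin subunits CCT5 at 0.93 and TCP1 at 0.92. For PIGR they were KCNQ1 at 0.84, PCSK6 at 0.84 and OLFM4, a glycoprotein of crypt cells in mammals, at 0.83. FAM118B was the one among the genes closest to JCHAIN that also differed between lines, with an averaged log2 fold change of -0.72 (limma adjusted p = 1.74e-05). The genes were picked for their high r, so r is a description.

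Genes around the pathway were counted by list for injection averaged over lines, where 41.1% of all tested genes were called and the median over them was -0.29 on the log2 scale. In the main fit no pathway list had a gene called between lines, against 1.17% (HASN vs LASN), 0.542% (HASI vs LASI) and 2.60% (averaged) of all tested genes. Without the 6 uninjected libraries with fewest genes above 0 there was again none, against 0.301% in HASN vs LASN and 1.33% averaged. Without the 6 with most, 0% to 42.1% of a list was called in HASN vs LASN, against 26.2% of all tested genes. Averaged over injection it was 0% to 31.6%, against 10.3%. Each injection count was repeated without the 6 uninjected libraries with fewest genes above 0, where 67.8% of all tested genes were called, and without the 6 with most, where 3.98% were. With the mitochondrially encoded share as a covariate 0.828% of all tested genes were called. The list counts and the genes named below are not given for that fit.

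Among 11 tested genes of class switching and hypermutation 4 were lower, or 36.4%, near the share over all tested genes. RIF1, which guides the repair of switch breaks, fell by 0.92 on the log2 scale (limma adjusted p = 0.00317), and TP53BP1, its partner, fell by 0.64 (adjusted p = 0.0344). The list's median was -0.35. Without the libraries with fewest genes above 0 the count was 8 lower, and without those with most 0, with RIF1 at -0.44 (adjusted p = 0.204) and TP53BP1 at -0.14 (adjusted p = 0.779).

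Among 14 B cell receptor and follicle genes 4 were lower, or 28.6%, and the median was -0.25, both nearer to 0 than over all tested genes. BACH2, a repressor that holds B cells back from the plasma cell fate in mice, had -0.73 (limma adjusted p = 0.00922) and DOCK8 -1.31 (adjusted p = 0.0137). The count was 10 lower without the libraries with fewest genes above 0, and 0 lower and 1 higher, BCL6, without those with most. BACH2 was then at -0.25 (adjusted p = 0.282) and DOCK8 at -0.50 (adjusted p = 0.561).

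The ER machinery that plasma cells use gave 46 tested genes, of which 7 were lower and 1 was higher, or 17.4%, and a median of -0.18. ATF6, a stress sensor of the ER membrane, fell by 0.50 in HAS (limma adjusted p = 0.0182) and by 0.36 in LAS (adjusted p = 0.0232). Without the uninjected libraries with most genes above 0 these were -0.39 (adjusted p = 0.124) and -0.34 (adjusted p = 0.0928), and the average over lines was -0.36 (adjusted p = 0.0290). SEL1L, part of the ER degradation complex, averaged -1.72 (adjusted p = 0.0144), and -0.59 (adjusted p = 0.606) without those libraries. The gene that rose was ATF4, a translation-controlled stress factor, with 0.31 (adjusted p = 0.0166), and 0.22 (adjusted p = 0.430) without them. The list's count was 24 lower and 7 higher without the libraries with fewest genes above 0, and 1 lower without those with most.

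TNFSF13B's neighbours in BAFF and CD40 signalling gave 11 tested genes, and 9 were lower, or 81.8%, with a median of -0.54. CD40, the receptor for T cell help, fell by 0.59 (limma adjusted p = 0.00417), and MAP3K14, the kinase of the noncanonical NF-kappaB pathway, fell by 0.54 (adjusted p = 0.00592). Without the libraries with fewest genes above 0 the count was again 9. Without those with most it was 0, with CD40 at -0.41 (adjusted p = 0.183) and MAP3K14 at -0.27 (adjusted p = 0.328).

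Among 26 tested genes of homing and mucosal cytokines 9 were lower, or 34.6%, with a median of -0.15. RARA, the retinoic acid receptor alpha, fell in HAS by 0.59 (limma adjusted p = 0.00677) and in LAS by 0.36 (adjusted p = 0.0247). Its average over lines was called without either set, at -0.39 (adjusted p = 0.00139) and -0.55 (adjusted p = 0.00279), while the LAS value alone was called in neither fit (adjusted p = 0.0595 and 0.0716). CCR9, the gut homing receptor of lymphocytes, averaged -0.76 (adjusted p = 0.00738), and -0.40 (adjusted p = 0.333) without the libraries with most genes above 0. The list's count was 13 lower without those with fewest and 1 lower and 1 higher without those with most. CXCL12, a retention signal for plasma cells in mice, had the smallest p of this list between lines, at -0.51 (adjusted p = 0.118).

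Of 19 plasma cell surface and other regulators 11 were lower and 1 was higher, or 63.2%, with a median of -0.66. IKZF2 averaged -0.96 (limma adjusted p = 0.00522), and -0.36 (adjusted p = 0.189) without the uninjected libraries with most genes above 0. CD28, shared by T cells and plasma cells, was higher without either set, at 0.53 (adjusted p = 0.0349) and 1.09 (adjusted p = 0.00415). The count was 16 lower and 1 higher without the libraries with fewest genes above 0, and 0 lower and 1 higher without those with most.

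Markers of other cells were followed beside these results. Of 13 T cell genes TCF7, a transcription factor of naive T cells, was the 1 called between the lines, lower in HASN than LASN by -1.42 (limma adjusted p = 0.0168) and by -1.06 averaged (adjusted p = 0.00607). TCF7 ranged from 0.780 to 6.13 TPM in HASN and from 5.59 to 15.9 TPM in LASN. Without the uninjected libraries with fewest genes above 0 its HASN vs LASN value was -1.01 (adjusted p = 0.455), and without those with most -1.83 (adjusted p = 0.00203). With injection CD3E, LCK, TCF7, THEMIS and ZAP70 were lower and CD28 higher, or 46.2% of the T cell list, beside the lower IKZF3. Without the uninjected libraries with fewest genes above 0 the share was 53.8%, against 67.8% of all tested genes. Without those with most it was 7.69%, against 3.98%. The summed level of the T cell list was 401 to 538 TPM in HASN and 400 to 650 TPM in LASN. In injected birds it was 301 to 538 TPM in HASI and 270 to 570 TPM in LASI.

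Enterocyte genes summed to 27985 to 61860 TPM in HASN and 40261 to 60574 TPM in LASN, and none of 16 was called between lines. With injection 3 of the 16 were lower, or 18.8%. Of 17 tested smooth muscle and stroma genes none was called between lines in the main fit. Their median averaged over injection was -0.47, against -0.14 over all tested genes. It was -0.52 without the uninjected libraries with fewest genes above 0 (-0.03 over all) and -0.19 without those with most (-0.24 over all). With injection these genes gave 2 lower, PDGFRA and PDGFRB, or 11.8%, but their median was 0.02, against -0.29 over all tested genes. Their sum ranged most in LASI, from 2499 to 12354 TPM. Macrophage and dendritic cell genes, 13 tested, gave 2 lower, CTSS and FLT3, or 15.4%. Red blood cell genes, 6 tested, and exocrine pancreas genes, 3 tested, gave none. In this fit these 5 counts all lie below the 41.1% over all tested genes. Without the uninjected libraries with fewest genes above 0 the shares were 50%, 23.5%, 61.5%, 16.7% and 0% in the same order, against 67.8%. Without those with most, 12.5% of the enterocyte genes were called, above the 3.98% over all tested genes, and 0% of each other list. CELA1, a pancreas gene, was higher in HAS averaged over injection, by 0.39 (limma adjusted p = 0.0145), at 1.25 TPM or less in all libraries. The part of these cell types in the JCHAIN difference was not tested.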

How the data were processed

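Jejunum RNA of 24 chickens was sequenced on Illumina libraries, per the labels' protocols. The authors deposited 1 table of TPM for 15618 genes, 12132 with a symbol, with column sums of 999995 to 1000000. The genome build was galGal6, per the submitters' processing notes; the aligner, counting tool and annotation release are not given in the sources used here. Groups and replicates follow the sample titles. No pair of libraries held identical values.

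Tests ran on log2(TPM + 1) for genes reaching 0.5 TPM in 6 or more libraries, so fold changes of low genes are understated. All 24 libraries entered 1 fit of limma 3.58.1 in R 4.3.3 with a mean per group, empirical Bayes moderation with trend and robust settings and 20 residual degrees of freedom. Tests were two-sided, adjusted by Benjamini-Hochberg over all 13279 tested genes, and called at an adjusted p below 0.05. The fit was tested on simulated data. Ratios used exact permutation tests, and correlations used 100000 permutations within groups (Python 3.11.15, scipy 1.17.1).

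The members and lists were chosen with earlier results of these data known. Of each list the text names the genes called between lines in the main fit. For injection averaged over lines it names the 2 with the smallest p, except for enterocytes, red blood cells and exocrine pancreas. A few others were chosen after their values were seen, and the rest are given as counts. Alternatives were rescaling by median ratios, removal of mitochondrially encoded genes, other filters and a pseudocount of 0.1, covariates, a replicate block and leaving out libraries; the mitochondrially encoded share as a covariate and the sets of uninjected libraries with fewest or most genes above 0 were chosen after seeing the data. No sequences are printed, and a planned search of promoters was not run. A further result is not reported here.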

Additional observations from a re-analysis of the deposited data

Results flagged for a closer look

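In 48 groups of 6 libraries, 1 library stood far from the rest in 5, by its gap to the nearest library as a share of the group's range (Dixon's 95% limit). For independent groups of normal values, chance alone sets apart about 1 group in 20. The same 24 libraries recur across the 48 groups, so these are not independent. The 5 gaps were taken on TPM, and all are at the highest library. On the log2 scale of the tests such a gap is a smaller share of the range, and it was not taken there. The highest JCHAIN library of HASN was replicate 5, with a gap of 0.707 of the range, and the same library was the highest for DERL3, with 0.641. LASI replicate 6 was the highest for PRDM1, with a gap of 0.802, and for XBP1, with 0.741. HASI replicate 2 was the highest for TNFSF13B, with a gap of 0.674.

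LASI replicate 6 also had the lowest mitochondrially encoded share of its group, 15.8%, and the highest span slope, -0.06. The part of either in its PRDM1 and XBP1 levels was not tested.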

How the results depend on the processing

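Limits from depth cannot be given without read counts. Calls moved most with the choice of uninjected libraries. Without the 3 HASN and 3 LASN libraries with fewest genes above 0, 4 of 9 members were called in HASI vs HASN and 4 for injection averaged over lines (PIGR, PRDM1, TNFSF13B and IKZF3 in both), where 57.4% and 67.8% of all tested genes were called, and 0 for the averaged line difference. Without the 3 and 3 with most, 1 was called in HASN vs LASN (JCHAIN), 1 in LASI vs LASN and 0 for averaged injection, against 26.2%, 6.24% and 3.98% of all tested genes. The JCHAIN to PIGR ratio of HASN vs LASN was then -1.76 and -1.43 (adjusted p = 0.2 in both), where 3 against 3 cannot pass. The number of correlated pairs was 18, and 6 under median-ratio rescaling, 3 with the span slope regressed out and 3 with the set means removed, which also left 6 of 10 relations with library measures.

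For averaged injection 4 members were called under median-ratio rescaling, with XBP1 and DERL3 higher (33.3% of all tested genes called); 1 with the span slope as a covariate (17.3%); and 0 with the mitochondrially encoded share (0.828%). With that share 0 were called in LASI vs LASN (0.497%) and 0 for the line average; the line average also had 0 under median-ratio rescaling and without mitochondrially encoded genes. With the span slope 1 was called in HASI vs HASN (11.3%) and 1 in LASI vs LASN (5.83%). Leaving out 1 library gave 0 to 1 in HASN vs LASN and 0 to 1 for the line average. In LASI vs LASN PRDM1 was called in all 12 such fits and IKZF3 in 8. JCHAIN was called there in 1, the fit without LASI replicate 6, in which PRDM1 and IKZF3 were called as well. 

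Sign changes arose in HASI vs HASN: with the mitochondrially encoded share PIGR was 0.10, PRDM1 0.32, IKZF3 0.21 and TNFSF13B 0.53; without the libraries with most genes above 0 PIGR was 0.046, PRDM1 0.044 and TNFSF13B 0.40. TNFSF13B was also 0.13 under median-ratio rescaling, 0.052 without mitochondrially encoded genes and 0.072 with the span slope, and it ranged from -0.25 to 0.0057 when 1 library was left out (0.0057 without HASN replicate 5). For averaged injection median-ratio rescaling gave PIGR 0.053, XBP1 0.28 and TNFSF13B 0.23; removing mitochondrially encoded genes gave XBP1 0.088 and TNFSF13B 0.065; the span slope gave XBP1 0.066 and TNFSF13B 0.30; the mitochondrially encoded share gave PIGR 0.15, XBP1 0.27 and TNFSF13B 0.47; and leaving out the libraries with most genes above 0 gave XBP1 0.066 and TNFSF13B 0.39. The JCHAIN to POU2AF1 ratio of LASI vs LASN ranged from -0.26 to 0.044 when 1 library was left out (0.044 without LASN replicate 4). Among 48 member results called in no fit, 30 changed sign at least once, and after the change none was past a log2 fold change of 0.53. Among these 48 the largest main value that changed sign was PRDM1 in HASN vs LASN, which went from -0.60 to as high as 0.05. PRDM1 in HASI vs HASN, called in 2 alternative fits and so not among them, went from -0.88 to as high as 0.32. The cause of these changes was not tested.

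Whether replicate numbers shared between groups pair the birds could not be settled: same-numbered libraries correlated from -0.51 to 0.68 in their deviations. A replicate block raised the share of all tested genes called in LASI vs LASN from 31.1% to 40.0%. For averaged injection it rose from 41.1% to 48.2%, and in HASN vs LASN from 1.17% to 1.36%. With a replicate block 1 member, JCHAIN, was called in HASN vs LASN (adjusted p = 0.0485), and the JCHAIN to PIGR ratio kept its difference of -1.59 with an adjusted p of 0.25, where 6 pairs cannot pass after adjustment.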
